A study of Homo sapiens with 4 samples.

Results

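A2ML1 and 9 other genes of squamous differentiation were followed through 4 arrays of head and neck cancer cells that had received miR-489 or miR-504. The 10 genes were A2ML1, IVL, SPRR1A, SPRR1B, SPRR3, TGM1, SCEL, KLK10, LCN2 and PI3. They were read by 12 probes, out of 30982 gene names and 41000 probes on each array. Genes were taken by name and every probe of a name was kept. They had been chosen by their control signal in the 2 cell lines and by their ratio of miRNA transfectant to control, with A2ML1 as the gene that fell on 3 of the 4 arrays. Those levels and ratios are therefore given as descriptions without a test.

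Stratified squamous epithelium differentiates as its cells leave the basal layer. Precursor proteins such as involucrin and the small proline-rich proteins are then crosslinked beneath the membrane by transglutaminases into the cornified envelope, while kallikreins, which are serine proteases, help to shed the outermost cells. Protease inhibitors, among them the alpha-2-macroglobulin-like protein encoded by A2ML1 and the elastase inhibitor elafin encoded by PI3, are made in the same upper layers. Squamous carcinomas keep this programme to different degrees.

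FaDu is an established line from a hypopharyngeal squamous cell carcinoma and HSC3 is one from a squamous carcinoma of the tongue. Cells of each line received miR-489, miR-504 or a control miRNA, and RNA was taken at 72 h. On each of the 4 arrays, RNA of a miR-489 or miR-504 transfectant carried Cy5 and RNA of control transfectants of the same line carried Cy3. There was 1 array per condition and the dyes were not swapped, so a dye effect of a probe cannot be told apart from a change after transfection. Each array is called by its line and miRNA. Values are given for FaDu with miR-489, FaDu with miR-504, HSC3 with miR-489 and HSC3 with miR-504, in this order. The labels do not say whether the 2 control RNAs of a line came from separate cultures, so their spread may be technical. In such bulk RNA, fewer differentiated cells and less RNA per cell cannot be told apart.

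The mature sequences of both miRNAs are shown with the seed, bases 2 to 8, in capitals, because the arrays compare the effects of these RNAs. They are from RefSeq on GRCh38.p14. The labels do not name an arm, so each mature form listed is given. The miR-489 sequence lies at chr7:93483947-93483968 on the minus strand, miR-504-5p at chrX:138667760-138667781 and miR-504-3p at chrX:138667724-138667744, both on the minus strand. No seed was shared among them.
hsa-miR-489-3p: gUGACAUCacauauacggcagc
hsa-miR-504-5p: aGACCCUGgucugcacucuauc
hsa-miR-504-3p: gGGAGUGCagggcaggguuuc

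Promoters are shown for the 3 small proline-rich genes and for A2ML1. They were chosen by the difference in control signal between the HSC3 arrays, which was large in the first and small in A2ML1. Each is 250 bases before to 50 after a RefSeq start, all on the plus strand of GRCh38.p14. SPRR1A is at chr1:152983831-152984130, SPRR3 at chr1:153001499-153001798 and SPRR1B at chr1:153030953-153031252. The upstream of 2 listed A2ML1 starts is at chr12:8822371-8822670. Capitals mark matches to TGANTCA, the AP-1 motif, on either strand.
SPRR1A: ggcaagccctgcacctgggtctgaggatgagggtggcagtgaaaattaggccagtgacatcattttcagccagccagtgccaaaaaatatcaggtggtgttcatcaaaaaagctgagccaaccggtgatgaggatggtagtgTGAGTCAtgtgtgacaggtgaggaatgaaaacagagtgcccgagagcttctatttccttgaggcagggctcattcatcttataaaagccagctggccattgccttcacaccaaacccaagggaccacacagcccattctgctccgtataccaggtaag
SPRR1B: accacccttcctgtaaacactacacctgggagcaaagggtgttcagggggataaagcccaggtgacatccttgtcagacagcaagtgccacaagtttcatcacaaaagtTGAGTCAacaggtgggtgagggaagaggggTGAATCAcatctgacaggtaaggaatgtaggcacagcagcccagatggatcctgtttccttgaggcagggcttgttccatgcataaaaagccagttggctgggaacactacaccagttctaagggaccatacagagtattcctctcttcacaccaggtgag
SPRR3: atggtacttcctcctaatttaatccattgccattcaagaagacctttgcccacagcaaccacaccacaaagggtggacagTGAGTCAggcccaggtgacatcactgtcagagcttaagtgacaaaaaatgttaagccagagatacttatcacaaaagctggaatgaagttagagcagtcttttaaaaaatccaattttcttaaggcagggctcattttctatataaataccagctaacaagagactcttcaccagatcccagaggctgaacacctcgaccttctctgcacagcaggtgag
A2ML1: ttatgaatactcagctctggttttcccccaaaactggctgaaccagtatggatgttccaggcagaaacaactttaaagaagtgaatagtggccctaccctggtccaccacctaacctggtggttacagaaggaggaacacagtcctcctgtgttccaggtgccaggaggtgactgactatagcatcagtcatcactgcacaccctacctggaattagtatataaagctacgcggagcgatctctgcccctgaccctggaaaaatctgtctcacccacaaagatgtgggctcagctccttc

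Promoters of 8 of the 10 genes were listed, with 2 starts each for A2ML1 and KLK10. A gene was counted if any of its starts had a match, whereas the shares over all promoters count each promoter. The 3 small proline-rich genes lie near each other on chromosome 1 and may not be separate cases. TGM1 and PI3 had no entry. An AP-1 match was found in 6 of the 8 genes, IVL, SPRR1A, SPRR1B, SPRR3, SCEL and LCN2, and in 7.73% of 34796 promoters of the same length. Counted from the start, the match of SPRR1A was at −108, that of SPRR3 at −170 and the pair in SPRR1B at −141 and −111. The letters TATAAA, searched on both strands, were present in 4 of the 8 genes and in 11.6% of all promoters. They lay at −31 in A2ML1, −30 in IVL and −29 in SPRR1A and SPRR3, apart from the AP-1 matches. A match to the NF-kB motif was found in LCN2 and KLK10 and in 1.6% of all promoters. The short letters CACCC were found in 7 of the 8 genes and in 59.8% of all promoters. Such matches describe the letters in these windows and are not measured binding sites. Of the genes with an AP-1 match, log2 control signal differed between the HSC3 arrays by 2.76 in SPRR1A, 3.85 in SPRR1B, 6.16 in SPRR3, 1.52 in LCN2 and 0.52 in SCEL. IVL was too dim on the HSC3 miR-489 array. Without a match, KLK10 differed by 2.68 and A2ML1 by 0.33. Whether the motif goes with these differences was not tested.

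The local background was taken off each spot's median intensity. Cy3 values were then scaled to a common median over the arrays and are given as scaled Cy3 signal in arbitrary units, which may be compared between arrays for a probe but not between probes. Between 58.2% and 59.2% of spots had a Cy3 signal well above background, and no spot was saturated (0). Replicate spots of a probe on an array had a median SD, over the probes with replicate spots, of 0.131 to 0.186 for log2 Cy3 signal and 0.0523 to 0.0591 for the log2 ratio. This is technical error only. All genes here had a single spot per probe, and 0 of their spots was marked as an outlier. Squamous markers KRT5, KRT14, TP63, SFN, DSG3, CDH1 and EPCAM were well above background in the controls on all 4 arrays, while KRT6A was not matched on the array. Of the fibroblast markers, COL1A2, COL3A1 and PDGFRB were at background on all arrays and THY1 lay between 845 and 1169. The leucocyte marker PTPRC and the endothelial markers PECAM1 and CDH5, with CD3E, were at background throughout. COL1A1, CD14 and VWF were above background on some arrays, with scaled Cy3 signals of at most 82.5.

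The HSC3 miR-504 array stood apart for these genes. Its control RNA carried the same label as the control RNA of the HSC3 miR-489 array, yet 8 of the 10 genes had a Cy3 signal at least 2-fold higher on it, against 2.02% of 17562 genes tested. No gene of the 10 was at least 2-fold lower among the 9 that could be tested (0 of 9), against 2.87% of all genes. Among the 9 genes well above background on both arrays, all were higher, with a median difference of 2.68 on the log2 scale and a range of 0.33 to 6.16. The median over 16903 genes was −0.063 and their SD was 0.40. The corresponding FaDu pair gave 1 of 7 genes, LCN2, against 1.56% of all genes, and a median over 6 genes of 0.16, and 0 of 6 was lower, against 1.96%. The log2 control signals of the FaDu pair correlated with r = 0.993 across genes and those of the HSC3 pair with r = 0.987, and genes are not independent replicates. The HSC3 miR-504 array also had the highest median log2 Cy3 intensity before scaling, 8.76 against 8.40 to 8.50 on the others. The part of this in the difference was not tested. Each comparison of the 10 genes between HSC3 and FaDu is therefore given with each HSC3 array by itself. The rule used the Cy3 levels of these arrays, so the counts, medians and ranks of the 10 genes between controls describe the genes chosen. IVL was among the 8 through the HSC3 miR-504 array alone, as its other control values were not well above background.

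**Figure D1:**
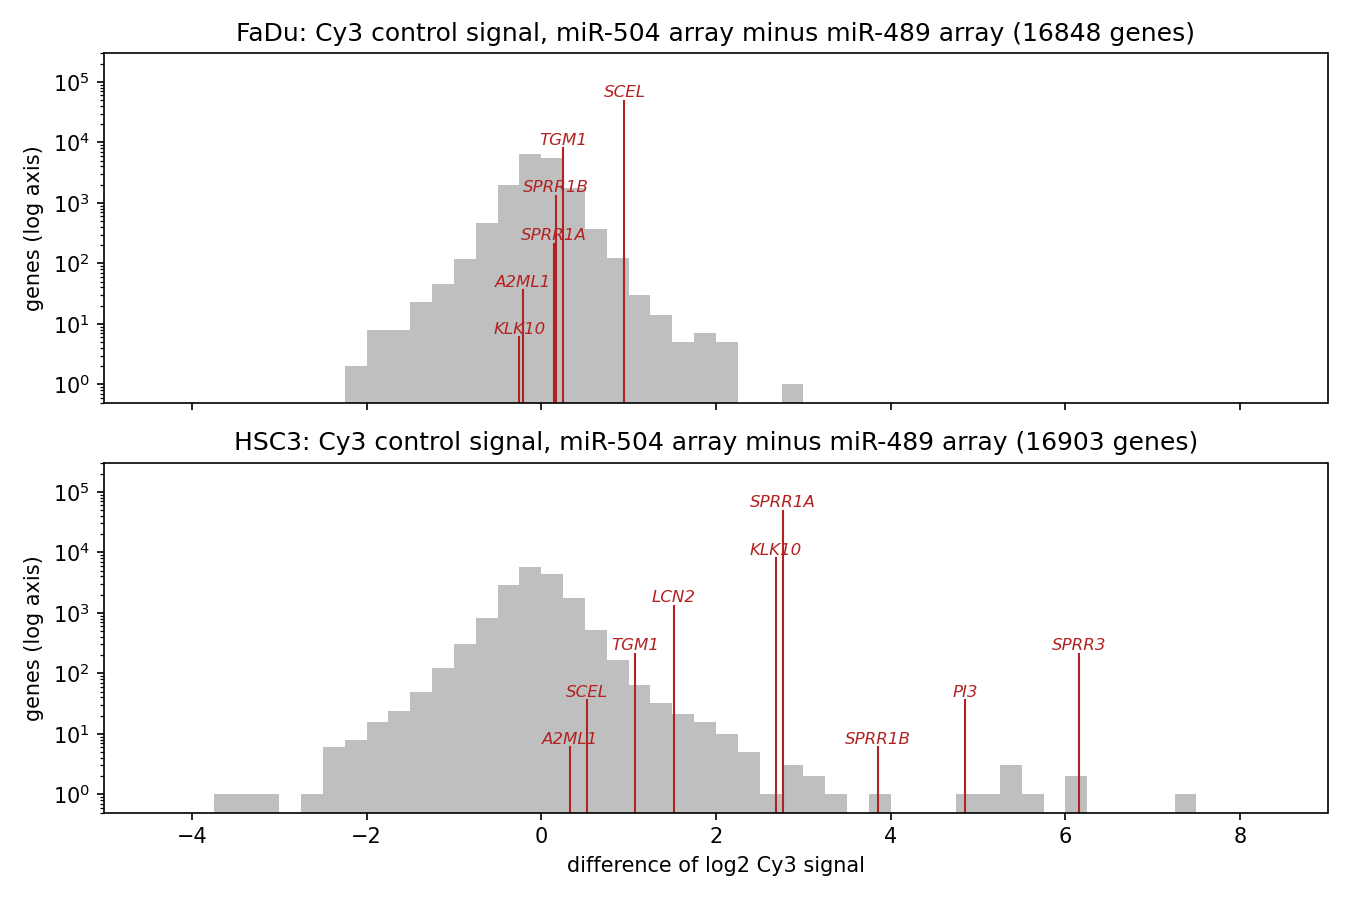
Difference in log2 Cy3 control signal between the miR-504 and miR-489 arrays of each line, with the number of genes on a log axis. Grey bars are all genes well above background on both arrays (16848 in FaDu and 16903 in HSC3) and red lines are the named genes. In FaDu the 6 named genes measured on both arrays lie between −0.25 and 0.95, whereas the 9 measured in HSC3 reach 6.16. LCN2 is not among these 6, because its FaDu control signal was too dim with miR-489. Between the FaDu controls LCN2 differed at least 4.64-fold, with more signal on the miR-504 array.

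Among the envelope precursors, SPRR3 showed the largest difference of the 10 genes between the HSC3 controls. It encodes a small proline-rich protein of mucosal epithelia. Its scaled Cy3 signal was 22.5 and 29.3 in FaDu and 204 and 14580 in HSC3. Both FaDu values were not well above background. SPRR3 thus ranked 3 of 16903 genes for the difference between the HSC3 controls (log2 difference 6.16), and HSC3 exceeded FaDu at least 7.66-fold with the HSC3 miR-489 array and at least 548-fold with the HSC3 miR-504 array. Bounds of this kind use the lowest signal well above background, or the probe's own signal if higher, for the dim side, and are the smaller of the values with median centring and with loess and Aquantile scaling.

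SPRR1B, another small proline-rich envelope precursor, had scaled Cy3 signals of 128 and 143 in FaDu and of 933 and 13460 in HSC3. The HSC3 controls differed 14.4-fold, and SPRR1B ranked 10 of 16903 genes. Even the lower HSC3 value was 6.90-fold above the FaDu mean, and the higher was 99.5-fold above it. The 2 lines did not overlap.

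SPRR1A was read by 2 probes with the same accession that disagreed. The brighter probe gave 605, 670, 1136 and 7702, whereas the other gave 54.7, 53.8, 624 and 12774. On the brighter probe HSC3 exceeded FaDu 1.78-fold with the HSC3 miR-489 array and 12.1-fold with the HSC3 miR-504 array. On the other probe these values were 11.5-fold and 236-fold. Both probes were higher on the second HSC3 array than on the first, by 2.76 and 4.36 on the log2 scale. SPRR1A and SPRR1B are closely related in sequence, and whether a probe also bound the paralog's RNA was not tested.

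IVL, which encodes involucrin, was dim. The scaled Cy3 signal was 25.2, 16.3, 29.4 and 66.5, and the value on the HSC3 miR-504 array alone was well above background. The difference between the HSC3 controls was at least 2.26-fold. That array exceeded FaDu at least 2.84-fold, and no fold can be given for the HSC3 miR-489 array.

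SCEL encodes sciellin, a further precursor of the envelope. It separated the lines with either HSC3 array. Its scaled Cy3 signal was 47.2 and 91.2 in FaDu and 478 and 686 in HSC3. HSC3 was higher by 7.28-fold with the HSC3 miR-489 array and by 10.5-fold with the HSC3 miR-504 array. The HSC3 controls differed by 0.52 on the log2 scale and the FaDu controls by 0.95, so the spread between controls was larger in FaDu.

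TGM1 encodes the membrane-bound transglutaminase that crosslinks these precursors. Scaled Cy3 signals were 90.6, 108, 169 and 355. Both HSC3 values lay above both FaDu values, by 1.71-fold and 3.60-fold over the FaDu mean. The difference between the HSC3 controls was 2.10-fold.

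KLK10 was the gene of the 10 with more control signal in FaDu. It encodes a secreted kallikrein-related peptidase. Its brighter probe gave 6066, 5091, 769 and 4941, and its other probe gave 964, 896, 118 and 831. FaDu exceeded the HSC3 miR-489 array 7.23-fold on the brighter probe and 7.90-fold on the other. With the HSC3 miR-504 array the ratio was 1.12-fold on either probe, so the difference between lines rested on the HSC3 miR-489 array. KLK10 ranked 17 of 16903 genes for the difference between the HSC3 controls.

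The protease inhibitors differed from each other. PI3, encoding elafin, had scaled Cy3 signals of 27.9 and 21.7 in FaDu, neither well above background, and of 71.5 and 2062 in HSC3. It differed 28.8-fold between the HSC3 controls and ranked 9 of 16903 genes. HSC3 exceeded FaDu at least 2.91-fold with the HSC3 miR-489 array and at least 83.8-fold with the HSC3 miR-504 array. A2ML1 was steady by comparison, with scaled Cy3 signals of 145, 126, 155 and 195. HSC3 was higher than the FaDu mean by 1.14-fold and 1.44-fold. The 2 lines did not overlap, but their nearest values, 145 and 155, lay within the spot error. The SD of replicate spots for log2 Cy3 was 0.159 and 0.149 on those 2 arrays.

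LCN2 encodes lipocalin 2, an iron-siderophore binding protein of mucosal defence. It was higher on the miR-504 array of each line. Scaled Cy3 signals were 20.4 and 112 in FaDu, the first not well above background, and 82.7 and 237 in HSC3, so that the lines overlapped. The FaDu controls differed at least 4.64-fold and the HSC3 controls 2.86-fold.

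Over both arrays of each line, 7 of 9 genes had at least 2-fold more control signal in HSC3, against 13.1% of all genes tested, and KLK10 was the gene of 6 with at least 2-fold less, against 14.5%. With the HSC3 miR-489 array alone the first count was 4 of 9, against 14.1%. These were SPRR1B, SPRR3, SCEL and PI3. With the HSC3 miR-504 array alone it was 8 of 10, against 13.3%, and 0 of 6 genes was lower, against 15.8%. Because these levels chose the genes, nothing is read from the counts.

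**Figure D2:**
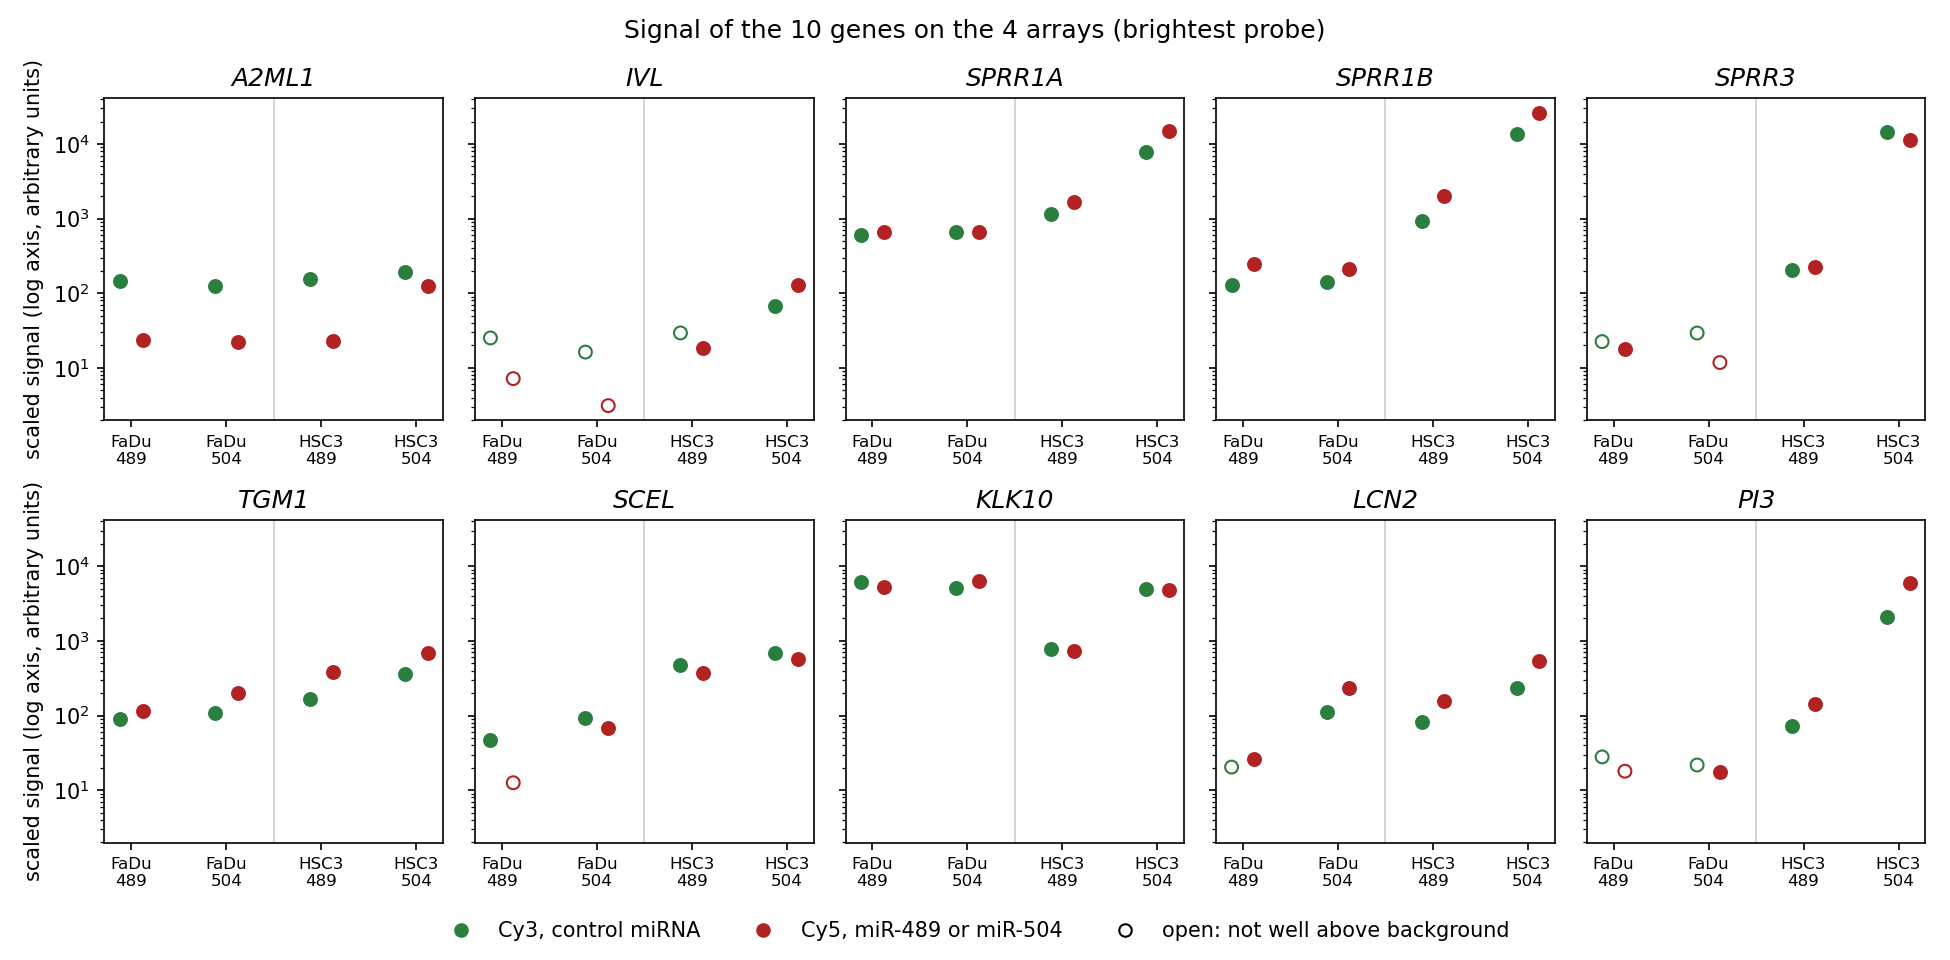
Scaled signal of the brightest probe of each gene on the 4 arrays, on a log axis in arbitrary units, with Cy3 (control miRNA) in green and Cy5 (miR-489 or miR-504) in red. Open symbols are not well above background. Both dyes of SPRR1A, SPRR1B, SPRR3 and PI3 are highest on the HSC3 miR-504 array, while the red A2ML1 points lie near 23 on 3 arrays and at 123 on the fourth.

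The ratio of miRNA transfectant to control was computed within each array and centred on the median, so that a negative log2 ratio is less RNA after the miRNA. A2ML1 had log2 ratios of −2.64, −2.50, −2.76 and −0.66. These are 6.23-, 5.67-, 6.79- and 1.58-fold less signal, respectively. On the first 3 arrays 66 of 17713, 54 of 17565 and 47 of 17849 genes with a measured control were at or below A2ML1, whereas on the HSC3 miR-504 array 2250 of 17568 were. The array just outside the fall on 3 arrays was thus at −0.66 and the one just inside it at −2.50.

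The Cy5 channel gave the difference in A2ML1. Its scaled Cy5 signal was 23.3, 22.2 and 22.8 on the first 3 arrays and 123 on the HSC3 miR-504 array. Before scaling, the background-subtracted Cy5 intensity was 32.5, 32.0, 33.5 and 198, over a median Cy5 background of 57.0 on each array. The first 3 were marked well above background but were smaller than the background itself. With normexp background correction the ratios were −1.48, −1.38, −1.60 and −0.52, so the fall remained at least 2-fold on the same 3 arrays but was smaller.

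In FaDu the ratio of A2ML1 differed by 0.13 on the log2 scale between miR-489 and miR-504, and in HSC3 by 2.10, with less A2ML1 after miR-489 in both. With 1 array per condition this difference has no replicate check. Of the 9 genes measured in both dyes on both HSC3 arrays, A2ML1 had the widest gap between the channels. This gap is the difference of 2.10 in another form, and the rule had singled out A2ML1 by its ratios. From the HSC3 miR-489 array to the HSC3 miR-504 array its Cy3 signal differed by 0.33 and its Cy5 signal by 2.44.

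Among the envelope precursors, SPRR1B had ratios above 0 on every array (0.97, 0.58, 1.10 and 0.97). SPRR1A had 0.15, −0.01, 0.55 and 0.94 on its brighter probe and 0.50, 0.21, 0.16 and 0.44 on the other. SPRR3 was measured in HSC3 only, with 0.16 and −0.35. The large difference in SPRR3 between HSC3 controls was therefore not mirrored in its ratios.

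SCEL had ratios of −0.44 on the miR-504 array of FaDu and of −0.37 and −0.27 in HSC3. With miR-489 in FaDu its Cy5 signal was not well above background and the control was at least 2.18-fold higher. IVL could be measured in both dyes on the HSC3 miR-504 array alone, where its ratio was 0.97.

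TGM1 was above 0 on all arrays (0.36, 0.91, 1.18 and 0.94). KLK10 lay near 0, at −0.18, 0.30, −0.09 and −0.05 on its brighter probe and at −0.40, −0.09, −0.32 and −0.21 on the other. PI3 had ratios of 1.0 and 1.54 in HSC3 and was at background in the FaDu controls. LCN2 had 1.07, 0.91 and 1.20 on the 3 arrays where its control was measured, and on the FaDu miR-489 array the Cy5 signal was at least 1.09-fold higher than the control.

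Counted per array, A2ML1 and SCEL were at least 2-fold lower on the FaDu miR-489 array (2 of 6 genes, against 8.74% of all genes). A2ML1 was the single gene at least 2-fold lower on the FaDu miR-504 array (1 of 7, against 5.89%) and on the HSC3 miR-489 array (1 of 9, against 7.96%). On the HSC3 miR-504 array 0 of 10 was, against 5% of all genes. At least 2-fold higher were LCN2 on the FaDu miR-504 array (1 of 8, against 2.37%), SPRR1B and TGM1 on the HSC3 miR-489 array (2 of 10, against 2.77%) and LCN2 and PI3 on the HSC3 miR-504 array (2 of 10, against 2.03%). On the FaDu miR-489 array 0 of 7 was, against 2.9%. Over the genes with a measured control, the median log2 ratio was −0.017 (n = 6), 0.30 (n = 7), 0.55 (n = 9) and 0.94 (n = 10), where the median over all genes lay between −0.030 and −0.0082. The rule used these ratios, so these counts and medians describe the genes chosen.

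**Figure D3:**
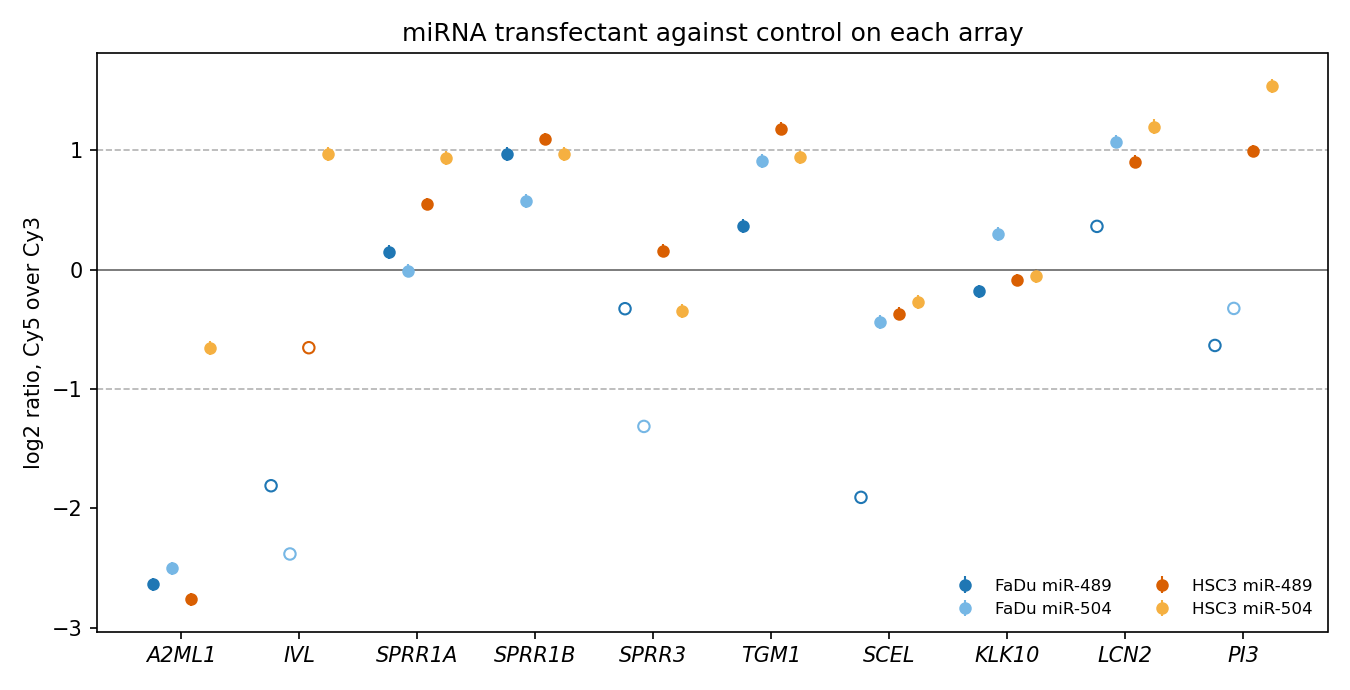
Log2 ratio of miRNA transfectant (Cy5) to control (Cy3) for the brightest probe of each gene on the 4 arrays. Bars are the median SD of replicate spots of other probes on that array, since each probe shown had a single spot. They leave out the effect of background handling, which moved A2ML1 from −2.64 to −1.48 with normexp on the FaDu miR-489 array. Open symbols have a dye not well above background, and dashed lines mark 2-fold. A2ML1 lies between −2.76 and −2.50 on 3 arrays and at −0.66 on the HSC3 miR-504 array.

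The Cy5 channel of the HSC3 arrays moved like the Cy3 channel for most of the genes. Between the HSC3 miR-504 and miR-489 arrays 8 of 10 genes had at least 2-fold more Cy5 signal on the former, against 5.05% of all genes, and 0 of 10 had at least 2-fold less, against 5.18%. Between the FaDu arrays SCEL and LCN2 had at least 2-fold more Cy5 signal with miR-504 (2 of 8, against 4.9%) and 0 of 7 had less, against 3.31%. The Cy5 differences were 5.65 for SPRR3, 5.39 for PI3, 3.72 for SPRR1B, 3.15 for SPRR1A and 2.72 for KLK10 on the log2 scale. Those for LCN2, TGM1 and SCEL were 1.81, 0.83 and 0.62. The rule used levels and ratios of these arrays, so the Cy5 counts also describe the genes chosen. The 2 dyes of an array read separate RNAs. The Cy3 and Cy5 RNAs of an array share its slide position and hybridisation, so an effect of the array cannot be told apart from one of the cultures.

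Other genes of the same pathways were taken from 6 lists. Of 134 listed genes 125 were on the array, 3 of them under an older name. Between the HSC3 controls, 35 of 96 related genes had at least 2-fold more Cy3 signal on the miR-504 array, against 2.02% of all genes, and 3 of 80 had at least 2-fold less, against 2.87%. Between the FaDu controls 1 of 71 was higher (SLPI), against 1.56% of all genes, and 1 of 74 was lower (CAMP), against 1.96%. Over the genes measured on both HSC3 arrays the median difference was 0.46 (n = 77), and over both FaDu arrays it was 0.052 (n = 69). The 96 also held genes too dim on the HSC3 miR-489 array to be measured there. Those entered the count through the HSC3 miR-504 array alone, and the share over all genes was counted in the same way.

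Of the envelope genes 18 of 29 were at least 2-fold higher between the HSC3 controls, against 2.02% of all genes. CRNN, CDSN, LCE2B, LCE3A, LCE3C and KRT4 were among the 18 through the HSC3 miR-504 array alone. Their control signal was not well above background on the HSC3 miR-489 array. At least 2-fold lower was 1 of 24 (TGM2), against 2.87%. The genes named in this paragraph were chosen after their values were seen. SPRR2G, a further small proline-rich gene, had scaled Cy3 signals of 82.1 and 14233 on the HSC3 arrays. KRT1, the suprabasal keratin of skin, had 69.0 and 5233, and LCE3D, a late cornified envelope gene, had 97.4 and 3986. KRTDAP, a keratinocyte differentiation gene, had 49.2 and 1877. In FaDu none of these 4 was well above background in the control channel. TGM2, the tissue transglutaminase, went the other way, from 1330 to 616. Members of the small proline-rich and late envelope families are alike in sequence, and whether their probes bound RNA of a relative was not tested.

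Of the kallikreins and serine protease inhibitors 8 of 20 were at least 2-fold higher between the HSC3 controls, among them KLK5, KLK6, KLK7, KLK11 and KLK12. KLK6, KLK7, KLK12, SERPINB3 and SERPINB4 were counted through the HSC3 miR-504 array alone, being too dim on the HSC3 miR-489 array. KLK6 gave 18.8 and 41.5, where the lowest signal well above background on the HSC3 miR-489 array was 20.3. At least 2-fold lower was 0 of 13. For each list in this paragraph the shares over all genes were 2.02% higher and 2.87% lower. SLPI, the secretory leucocyte protease inhibitor, had scaled Cy3 signals of 261 and 1192 in FaDu and of 2307 and 9948 in HSC3, and like LCN2 was higher on the miR-504 array of both lines. Of the antimicrobial genes 3 of 7 were at least 2-fold higher, namely the beta-defensins DEFB4 and DEFB103A and the ribonuclease RNASE7. At least 2-fold lower was 1 of 7 (WFDC2). Of the regulators 3 of 18 were at least 2-fold higher, among them the transcription factors GRHL3 and OVOL1, and 0 of 17 was at least 2-fold lower. Of other suprabasal genes 3 of 19 were at least 2-fold higher, namely KRTDAP, CRCT1 and ABCA12, and 1 of 16 was at least 2-fold lower (CALML5). In the alpha-2-macroglobulin family 0 of 3 was at least 2-fold higher and 0 of 3 at least 2-fold lower. The 3 measured genes had log2 differences of 0.11 to 0.48 with a median of 0.11, where 6965 of 16903 genes were above 0. That median was smaller than the SD of replicate spots for log2 Cy3 on these arrays (0.149 and 0.131). A2M and PZP were at background on all 4 arrays. CD109, a membrane member of that family, gave 573, 455, 710 and 993.

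**Figure D4:**
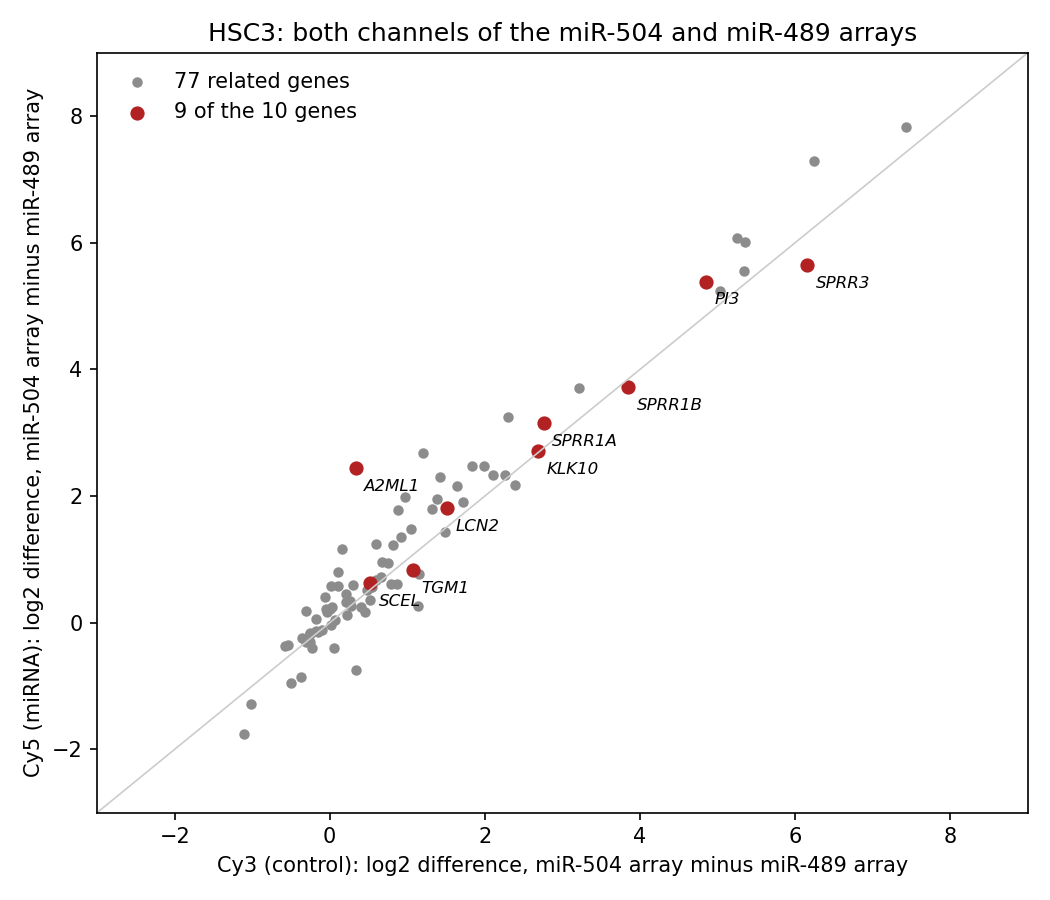
Log2 difference between the HSC3 miR-504 and miR-489 arrays in the control channel (Cy3) against that in the miRNA channel (Cy5), for genes well above background in both dyes on both arrays. Red points are 9 of the 10 genes, grey points are 77 related genes, and the line marks equal differences. SPRR3 and PI3 lie far along the line, while A2ML1 lies above it at 0.33 and 2.44.

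The control channel of both lines was compared for the related genes with limma, with the 2 arrays of a line as replicates. As these may hold RNA of the same culture, the p-values of this contrast measure the spread between arrays. Of 60 related genes tested, 12 were higher in HSC3 (10.1% of all 15725 genes tested) and 6 were higher in FaDu (11.6%), at a Benjamini-Hochberg adjusted p under 0.05 and at least 2-fold. Because the 2 HSC3 controls differed, calls were repeated without each array. The number called was 15 and 14 without either FaDu array, 24 without the HSC3 miR-489 array and 17 without the HSC3 miR-504 array, and 15, 14, 16 and 15 of these were among the 18. The call held without each array in turn for 11 of the 18 genes. For the other 7, namely SPRR2C, SLPI, PRSS8, SERPINB5, ST14, OVOL1 and LYPD3, leaving out 1 or more arrays took the adjusted p over 0.05 or the difference under 2-fold.

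Envelope genes higher in HSC3 were CSTA, encoding the cysteine protease inhibitor cystatin A (log2 difference 1.33 ± 0.21 SE, limma adjusted p = 0.00224), and SPRR2C (3.99 ± 1.35, adjusted p = 0.0453). The adjusted p of SPRR2C was 0.0926 and 0.0812 without the FaDu miR-489 and miR-504 arrays, and its scaled Cy3 signal was 137 and 4467 in the HSC3 controls. PPL, encoding the envelope scaffold periplakin, was lower in HSC3 (−2.83 ± 0.23, limma adjusted p = 0.000203).

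Among proteases and inhibitors, KLK8 was higher in HSC3 by 3.63 ± 0.28 (limma adjusted p = 0.00018). SLPI was higher by 3.1 ± 0.83 (limma adjusted p = 0.0188), with an adjusted p of 0.057 without the FaDu miR-489 array and of 0.0582 without the HSC3 miR-504 array. The protease PRSS8 and the serpin SERPINB5 were also higher, each by 1.09, but by 0.82 for PRSS8 without the FaDu miR-489 array and by 0.96 for SERPINB5 without the HSC3 miR-504 array, both under 2-fold. ST14, encoding matriptase, was lower by 1.05 (difference −1.05, limma adjusted p = 0.00237), and the difference was under 2-fold without the miR-504 array of FaDu (−0.95) or of HSC3 (−0.93).

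Among regulators, the ETS factor EHF was higher in HSC3 by 3.02 ± 0.18 (limma adjusted p = 7.99e-05), whereas ELF3, of the same family, was lower (−3.74 ± 0.29, limma adjusted p = 0.000185). GRHL2 and OVOL1 were lower, with differences of −1.20 and −1.58, and the call of OVOL1 was lost without the FaDu miR-504 array (adjusted p = 0.0555) and without the HSC3 miR-489 array (difference −0.86). FOSL2, an AP-1 subunit, was higher by 1.31.

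Among other suprabasal genes, ECM1, CLDN1, PKP1 and LYPD3 were higher in HSC3 by 3.47, 3.30, 1.93 and 1.11 and the tight junction gene CLDN4 was lower (−3.07 ± 0.16, limma adjusted p = 5.84e-05). LYPD3 was under 2-fold without the FaDu miR-504 array (0.76) or the HSC3 miR-489 array (0.96). Related genes thus went in both directions between the lines.

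The ratios of miR-489 arrays were compared with those of miR-504 arrays by limma, with the 2 lines as replicates. Effects common to all arrays, such as a dye effect, cancel in this contrast. Of 60 related genes, 3 were lower after miR-489 (0.776% of all genes tested) and 0 was higher (0.305%). GRHL3, a grainyhead factor of epidermal differentiation, had ratios of −0.33 and −0.26 after miR-489 and of 1.17 and 1.23 after miR-504 (difference −1.49 ± 0.11, limma adjusted p = 0.031). OVOL1, a zinc finger repressor of epithelia, had −0.65 and −0.62 against 0.25 and 0.27 (difference −0.89 ± 0.11, limma adjusted p = 0.0416). PKP1, encoding the desmosomal plakophilin 1, had −0.45 and −0.29 against 0.74 and 0.73 (difference −1.10 ± 0.12, limma adjusted p = 0.0362). In each of the 3 the groups did not overlap, which adds nothing to the limma calls that picked these genes. Without any one of the arrays limma called no probe at all in this contrast (0), although 2051 to 3699 of 20914 probes had an unadjusted p under 0.05, so these calls rest on all 4 arrays.

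The genes most like A2ML1 over the 4 log2 ratios were sought by Euclidean distance among 15724 other genes whose control was well above background on each array. They were UNQ9438 (distance 1.04), THC2317278 (1.26), RSNL2 (1.38), ARVCF (1.38) and THC2278239 (1.39). UNQ9438 had ratios of −2.19, −2.34, −1.85 and −0.73, with scaled Cy3 signals of 90.0, 89.6, 95.3 and 117. RSNL2 had −2.83, −1.52, −2.19 and −1.41, at scaled Cy3 signals of 834, 745, 1059 and 1357. THC2317278 had a Cy5 signal that was not well above background on any array, so its ratios are bounds. That of ARVCF was not well above background on either FaDu array, so its FaDu ratios are bounds too. The distances of these genes and their places in the order are limited likewise. None of the 5 was in the lists of related genes.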

How the data were processed

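RNA of FaDu and HSC3 transfectants was read on 4 two-colour Agilent arrays, all on 1 slide and read in 1 scan, so no batch could be fitted. The authors deposited scanner output from Agilent Feature Extraction (version 9.5.3.1) with spot and local background intensity, and a log10 ratio of Cy5 over Cy3 that this software had normalised; a deposited table of values was identical to it (largest difference 0). The software's deposited marks of outlier spots and of signals well above background served as filters. The methods name log2 ratios of background-subtracted median intensity with global normalisation, and the main values follow them. Genome build of the array annotation was not given in the sources used here.

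Background-subtracted median signals under 1 were set to 1. Log2 ratios were centred on probes well above background in both channels (medians removed 0.58, 0.65, 0.58 and 0.44), and log2 Cy3 signals on their median. A gene took its brightest probe. Names follow the design of the array. A gene was tested as higher only where the brighter side was well above background; the other side took the higher of its value and the lowest signal well above background. limma was fitted to 20914 probes whose Cy3 was well above background on each array. There were 2 residual degrees of freedom, and the Benjamini-Hochberg adjustment was used at 0.05. The fit was tested on simulated data of 20914 probes with independent noise, where 200 probes were shifted by 2 on the log2 scale. In each contrast 200 of 200 shifted probes were recovered, with 8 and 16 false calls among the unshifted probes. Recovery of smaller changes, such as those of the related genes called between the miRNAs, was not tested. Precision is limited by 1 array per condition.

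The genes named were all 10 genes with every probe, the 5 genes nearest to A2ML1 and, per list of related genes, at most the 6 largest changes passing a test; the text says which others were named with their values in view. The genes, the lists and the tests were chosen with earlier results of these data known. Alternatives were normexp (offset 50), no background subtraction, loess (span 0.3), quantile normalisation, the deposited log10 ratios and processed signals, the mean of all probes, other filters on dim probes, no fold threshold, fits without each array and fits with cell line as block. RefSeq sequences were matched by symbol. Tests used limma 3.58.1 in R 4.3.3. Files were read with the data.table package (1.17.8). Summaries used pandas 2.3.3 and numpy 2.4.6 in Python 3.11.15, and plots used matplotlib 3.10.9.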

Additional observations from a re-analysis of the deposited data

Results flagged for a closer look

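Signal on the miR-504 array minus that on the miR-489 array of the same line went in opposite directions in FaDu and HSC3, in both dyes, for 2 probes that were well above background everywhere. For A2ML1 the log2 differences were −0.21 (Cy3) and −0.071 (Cy5) in FaDu and 0.33 and 2.44 in HSC3. For the dimmer SPRR1A probe they were −0.024 and −0.32 in FaDu and 4.36 and 4.63 in HSC3. The brighter SPRR1A probe did not share this pattern in Cy3, with 0.15 (Cy3) and −0.0085 (Cy5) in FaDu and 2.76 and 3.15 in HSC3. The FaDu Cy3 difference of the dimmer probe, −0.024, was smaller than the SD of log2 Cy3 signal between replicate spots on an array (0.131 to 0.186), and so in size was the Cy5 difference of A2ML1, −0.071, for which the spot SD of Cy5 was not computed. The A2ML1 Cy3 difference in FaDu, −0.21, was little larger in size than the spot SD of the FaDu arrays (0.159 and 0.186). Since a difference carries the error of 2 spots, no direction is read from that value. The difference between the lines was not tested, since each value comes from a single pair of arrays.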

How the results depend on the processing

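With FaDu before HSC3 and miR-489 before miR-504, the A2ML1 log2 ratio became −1.48, −1.38, −1.60 and −0.52 with normexp, and −1.56, −1.51, −1.65 and −0.54 without background subtraction. It became −2.34, −2.23 and −2.47 on the first 3 with loess, and −2.52 and −2.89 in FaDu with the deposited ratios. The median log2 ratio of the 10 genes moved on the FaDu miR-489 array to 0.040 without background subtraction, −0.16 with loess, −0.15 with the deposited ratios and −0.25 with no filter on dim probes. On the FaDu miR-504 array it moved to 0.37 with normexp, 0.41 without background subtraction, 0.19 with loess, 0.10 with the mean of all probes and −0.17 with no filter. On the HSC3 miR-489 array it moved to 0.41 with loess, 0.43 with the deposited ratios, 0.36 with the mean of all probes and 0.36 with no filter. On the HSC3 miR-504 array it moved to 0.77 with normexp, 0.72 without background subtraction, 0.74 with loess, 0.72 with the deposited ratios and 0.82 with the mean of all probes. The sign of the median thus depended on the setting in FaDu and not in HSC3. The median difference of the 10 genes between the HSC3 controls kept its direction, between 2.63 and 2.75, under 5 alternatives chosen after seeing the data. The median Cy3 difference, FaDu minus HSC3, was −1.76 and ranged from −2.62 to −0.81 when an array was left out (without the HSC3 miR-489 and the HSC3 miR-504 array, respectively).

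For the limma contrast between lines, 4361 probes were called, 10151 without the fold threshold and 4402 to 4662 with an array left out. For that between miRNAs, 222 probes were called, 672 with normexp, 345 with loess and 0 with no filter on dim probes (3235 at an unadjusted p under 0.05). With an array left out the count was 0 each time. The sample titles and source names carry no replicate number that could pair samples. With the cell line as a block 376 were called, and GRHL3, OVOL1 and PKP1 kept a limma adjusted p of 0.0298, 0.0456 and 0.0359. The cause of these changes was not tested.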
